A study of Mus musculus with 16 samples.

Results

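The 8 genes described here make, carry and break down the catecholamines dopamine, noradrenaline and adrenaline. They were taken by symbol from the table of all genes counted in aged mouse brain, and all 8 (Th, Ddc, Gch1, Slc18a2, Slc6a3, Slc6a2, Maoa and Maob) were found among its 40481 genes. RNA was sequenced from the brains of 16 C57BL mice (C57BL/6J in the study's methods), bought at 18 months of age, and the labels name no part of the brain. A group of 8 mice received adropin, as the synthetic peptide of residues 34 to 76, by daily intraperitoneal injection of 90 nmol/kg, and 8 saline controls received the diluent, 0.9% saline with 0.1% BSA, which the adropin injections also held. Both groups were injected for 2 weeks before behavioural testing and during it, were fasted for 6 h at the end, and came from treatment groups of 15 mice. The mice carry a pair of numbers in their labels, such as 8_3, by which they are named.

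Catecholamine neurons are few and lie in compact groups. Dopamine neurons have their cell bodies mainly in the midbrain and noradrenaline neurons mainly in the locus coeruleus of the hindbrain, and both send long axons to the forebrain. Tyrosine hydroxylase (Th) turns tyrosine into L-DOPA, the rate-limiting step, with a cofactor, tetrahydrobiopterin, whose synthesis begins with GTP cyclohydrolase 1 (Gch1). Aromatic L-amino acid decarboxylase (Ddc) turns L-DOPA into dopamine and also makes serotonin. The vesicular monoamine transporter VMAT2 (Slc18a2) loads the amines into vesicles, the dopamine transporter (Slc6a3) and the noradrenaline transporter (Slc6a2) take them back into the neuron, and monoamine oxidases A and B (Maoa and Maob) degrade them in many cell types. Slc18a2, Ddc and the oxidases also serve serotonin neurons.

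Annotated promoters from RefSeq (GRCm38.p6) were matched for 6 of the 8 genes, Th, Ddc, Gch1, Slc18a2, Slc6a3 and Maoa, with a second start for Ddc. The stretches of Th and Slc18a2 are shown because they alone among these 6 genes held the palindromic cyclic AMP response element TGACGTCA, printed in capitals. Each runs 5′ to 3′ over 250 bases, from 246 before to 4 after the annotated start. That of Th lies at chr7:142899992-142900241 on the minus strand and that of Slc18a2 at chr19:59260632-59260881 on the plus strand.
Th: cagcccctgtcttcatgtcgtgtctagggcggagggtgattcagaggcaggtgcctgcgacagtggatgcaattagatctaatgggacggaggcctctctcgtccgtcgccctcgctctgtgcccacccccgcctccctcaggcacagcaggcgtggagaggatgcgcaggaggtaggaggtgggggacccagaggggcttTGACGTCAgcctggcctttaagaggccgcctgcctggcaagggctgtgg
Slc18a2: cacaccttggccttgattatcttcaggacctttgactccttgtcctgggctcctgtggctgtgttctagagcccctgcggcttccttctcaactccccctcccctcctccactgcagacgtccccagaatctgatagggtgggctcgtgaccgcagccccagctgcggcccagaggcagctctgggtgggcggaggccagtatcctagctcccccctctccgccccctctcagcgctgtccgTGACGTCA
In Th the element began 45 bases before the start, and in Slc18a2 it lay across the start, with 4 bases on either side. Searched on both strands, TGACGTCA was present in 1.79% of the 32851 promoter windows of 300 bases. The GC box GGGCGG was present in 5 of the 6 genes' windows (Th, Gch1, Slc18a2, Slc6a3 and Maoa) and in 35.7% of all windows. The AP-1 site TGACTCA was in none of the 6 genes' windows and in 5.2% of all. The NBRE motif AAAGGTCA, read from the opposite strand, was in 1 of the Ddc windows and in 1.51% of all. These matches describe letters and not bound sites.

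Library totals ranged from 35026503 to 70314050 counts, so that 3 counts, the limit that a count of 0 allows, came to between 0.0427 and 0.0856 CPM (counts scaled to 1000000 per library), for counting error only. Levels are CPM scaled with TMM factors, which correct for differences in library composition. The comparison between groups needed above 1 CPM, before TMM scaling, in 7 or more mice, which 14949 genes had. Th, Ddc, Slc18a2, Maoa and Maob, 5 of the 8, were among them, while by the same measure Gch1 passed 1 CPM in 5 mice and Slc6a3 and Slc6a2 in 0. Neuron markers were high in every mouse, with Snap25, Syt1 and Rbfox3 summing to between 4083 and 5642 CPM. Of the 11 markers listed for midbrain dopamine neurons, 7 stayed below 1 CPM in every mouse. Over all mice Pitx3 reached 0.221, En1 0.173, Foxa1 0.131 and Foxa2 0.0539 CPM, and Lmx1a, Lmx1b and Chrna6 reached 0.888, 0.724 and 0.977 CPM. The other 4 markers, which other brain cells are known to express too, were higher, with Nr4a2 at up to 107 CPM, Aldh1a1 at up to 40.3, Ret at up to 4.66 and Slc10a4 at up to 2.77. Dbh, the enzyme that makes noradrenaline, and Phox2a, listed as markers of noradrenaline neurons, stayed below 1 CPM too, with at most 0.497 CPM for Dbh and 0.116 for Phox2a. In whole tissue, fewer cells of a type and less RNA per cell cannot be told apart. Saline mouse 8_3 stood apart, with summed markers of the cerebellum at 283 CPM against 5.24 to 10.8 in the other 15 mice.

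Compared per kilobase of exon, the genes for breakdown were the most abundant and the genes for uptake from the synapse the least. Maob had 7.11 ± 0.653 CPM per kb (SD, n = 16) and Maoa 5.87 ± 0.543, and Maob was the higher in 16 of 16 mice. Ddc followed at 1.09 ± 0.208 CPM per kb, below Maoa in 16 of 16 mice. Th had a mean of 0.828 ± 0.889 and Slc18a2 of 0.813 ± 0.126 CPM per kb. The mean of Th was raised by mouse 8_3, and Th was the higher of the pair in 4 of 16 mice. By median the order was reversed, with 0.599 CPM per kb for Th and 0.807 for Slc18a2. The difference between these neighbours was not tested. Gch1 stood at 0.151 ± 0.0499 CPM per kb, below Slc18a2 in 16 of 16 mice. Slc6a3 had 0.0496 ± 0.0385 CPM per kb and was below Gch1 in 15 of 16 mice, and Slc6a2 had 0.00352 ± 0.00467 and was below Slc6a3 in 15 of 16. Ddc exceeded Th in 14 of 16 mice.

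**Figure D1:**
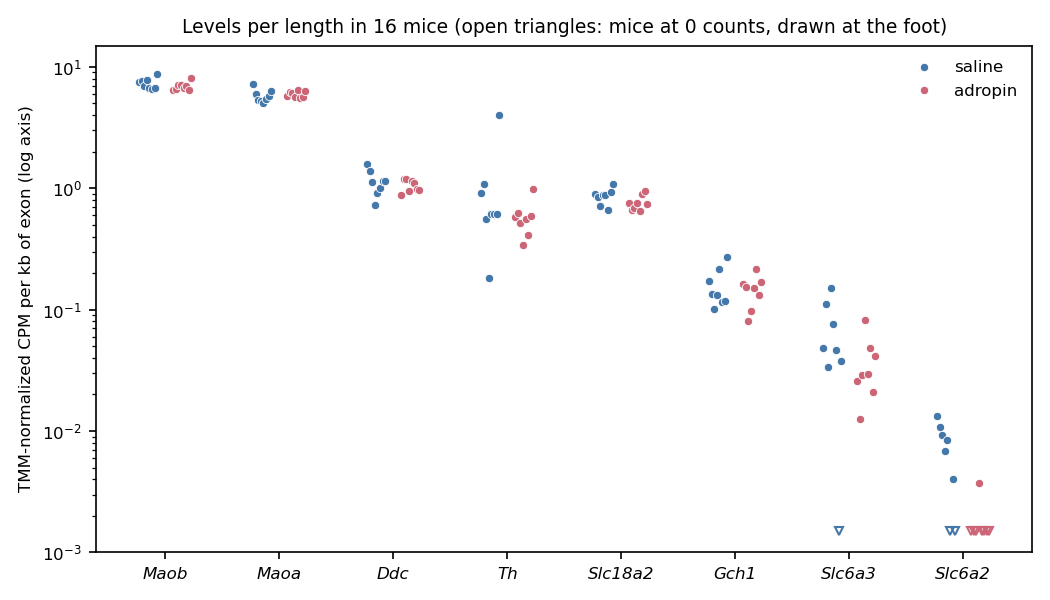
Level of each gene per kilobase of exon (TMM-normalized CPM per kb, log axis) in the 8 saline and 8 adropin mice, 1 point a mouse, ordered by the mean over 16 mice. Maob and Maoa lie above all other genes in every mouse, Th in mouse 8_3 is the next highest value at 4.05, and the open triangles mark mice at 0 counts for Slc6a3 (1 mouse) and Slc6a2 (9 mice).

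Adropin treatment was compared with saline to ask whether transcripts of catecholamine handling differed in the aged brain. None of the 5 genes tested passed the cut-off of a fold change above 1.5 with an unadjusted p below 0.05 in edgeR's quasi-likelihood test, which 0.421% of all genes tested passed. None reached an unadjusted p below 0.05 either, as 3.99% of all genes did. The cut-off was passed by 0 of the 5 genes with limma-voom (0.308% of all genes) and by 1, Th, with DESeq2 (0.421% of all genes). The study, by the same cut-off after a fit in limma, listed Th in an AP-1 transcription factor network enriched among its responsive genes. Of the 5 genes, 4 had lower and 1 (Maoa) had higher fitted levels in adropin mice, and their median log2 fold change was -0.11, against -0.0019 over all genes tested. Two-sided exact permutation tests of the mean log2 level covered all 8 genes, and 1 of them, Slc6a2, had an unadjusted p below 0.05, as did 3.41% of the 30210 genes with at least 1 count. Without mouse 8_3 the edgeR cut-off was again passed by 0 of the 5, and by 0.328% of all genes.

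**Figure D2:**
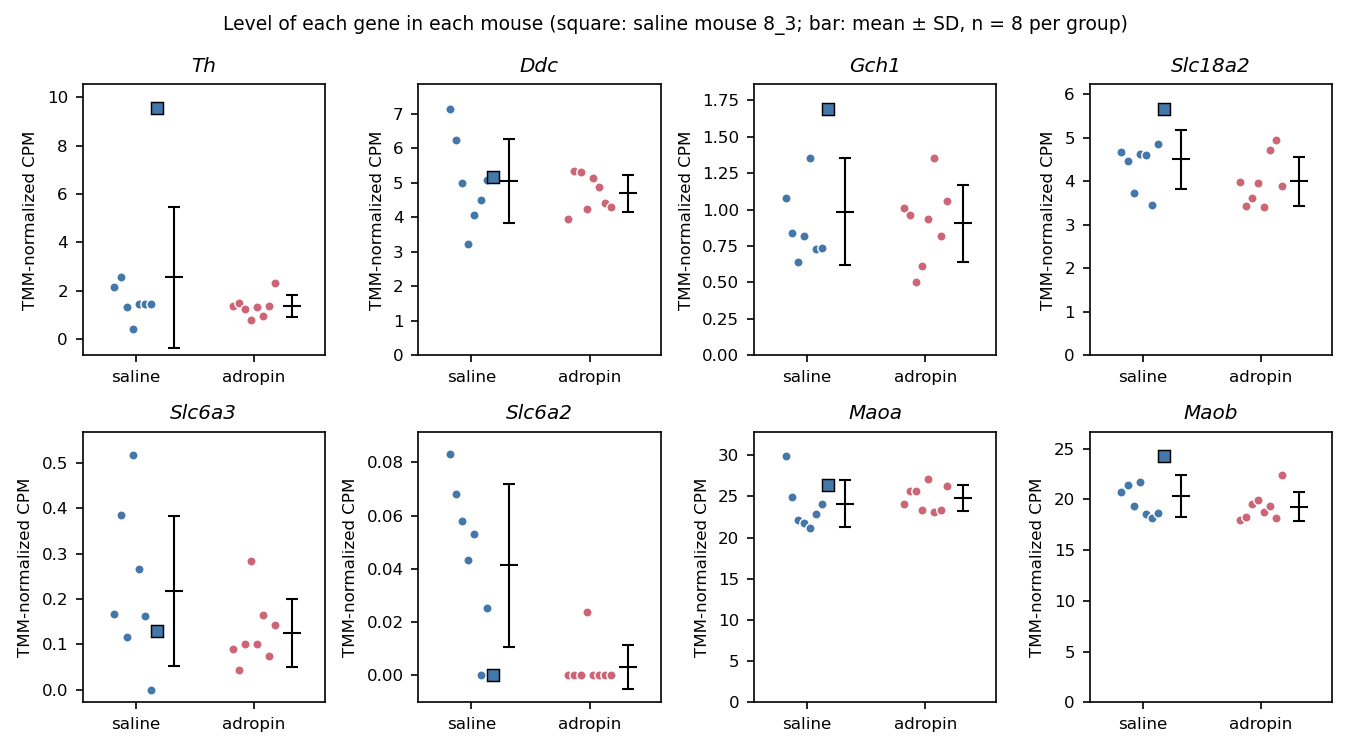
TMM-normalized CPM of the 8 genes in each mouse, on linear axes, with saline mice in blue, adropin mice in red, saline mouse 8_3 as a square, and black bars for the mean ± SD of 8 mice. The groups overlap for every gene, and the square is the highest saline value for Th, Gch1, Slc18a2 and Maob.

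Th, on chromosome 7 of GRCm38 from 142892752 to 142931128 (minus strand), was low and the most uneven of the 5 genes tested. In adropin mice it ranged from 0.804 to 2.32 CPM with a median of 1.35, and in saline mice from 0.431 to 9.58 with a median of 1.46. The highest level, 442 counts, was in saline mouse 8_3, and the next saline mouse had 2.58 CPM. The lowest, 20 counts, was in saline mouse 6_1, so that the saline mice spanned the whole adropin range on both sides. The saline mean of 2.56 ± 2.91 CPM (SD, n = 8) became 1.55 ± 0.680 without mouse 8_3 (n = 7), beside an adropin mean of 1.36 ± 0.451 (n = 8). The log2 fold change was -0.92 with a standard error of 0.447 (95% confidence interval -1.86 to 0.02, edgeR unadjusted p = 0.0543, adjusted p = 0.874). Without mouse 8_3 it was -0.20 (interval -0.78 to 0.39, edgeR unadjusted p = 0.494), and limma-voom on all mice gave -0.46 (unadjusted p = 0.308). On the log2 scale the difference was -0.44 (exact permutation p = 0.398). The within-group SD of the log2 level of Th, 0.910, was larger than that of 99.7% of the genes tested, and without mouse 8_3 it was 0.621, larger than that of 98.4%.

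The high Th of mouse 8_3 came with high levels of regional markers. Pcp2, of cerebellar Purkinje cells, was 28.2 CPM in this mouse against at most 0.781 in the others, and Gabra6, of cerebellar granule cells, was 34.9 against at most 0.242. Cbln3, also of granule cells, was 125 against at most 2.77, and Car8, of Purkinje cells, was 91.7 against at most 7.24. Choroid plexus markers summed to 2470 CPM against 11.9 to 330 in the other mice, with Ttr, the transport protein of that epithelium, at 2398. Hindbrain markers summed to 2.19 CPM, against at most 0.453, and Slc6a5 alone was 2.04 CPM of it, against at most 0.410. The other 4 of the 5, all Hox genes, stayed below 1 CPM in every mouse. Of these, Hoxb3 and Hoxb5 were at 0 in mouse 8_3 and Hoxc4 (0.0867 CPM) lay within the range of the others. Hoxa5 was 0.0650 CPM, against 0 in the others. The summed markers of midbrain dopamine neurons in mouse 8_3, 77.1 CPM, were within the range of the adropin mice (72.5 to 118) and were the lowest of the saline mice (up to 128). Most of that sum was Aldh1a1 and Nr4a2, which other brain cells are known to express too. The members of that list did not move together in this mouse. Lmx1a was 0.888 CPM, against at most 0.0860 in the other mice, and Aldh1a1 was 40.3 CPM, against 10.7 to 31.9, whereas Nr4a2, at 30.2 CPM, was below the other mice (48.8 to 107). Ret (4.31 CPM), Lmx1b, Chrna6, Slc10a4 and Pitx3 (0.130 CPM) lay within the range of the other mice, and En1, Foxa1 and Foxa2 had 0 counts. Slc6a3 had 6 counts in mouse 8_3, and for the noradrenaline neuron Slc6a2 had 0 counts and Dbh was 0.108 CPM, the lowest of all mice. Oligodendrocyte markers were also the highest in mouse 8_3 (6141 CPM, others up to 5936), whereas the sums for the striatum, cortex, olfactory bulb, hypothalamus, serotonin neurons, astrocytes, endothelium, neurons and blood lay within the range of the other mice. Single markers in these lists did stand apart, among them Eomes (3.58 CPM against at most 0.135), Doc2g and S100b above that range, and Tbx21 and Cdhr1 (1.13 CPM against 1.98 to 9.14) below it. Eomes and Doc2g stand in the list for the olfactory bulb, as do Tbx21 and Cdhr1. The part of regional tissue in the level of Th was not tested.

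**Figure D3:**
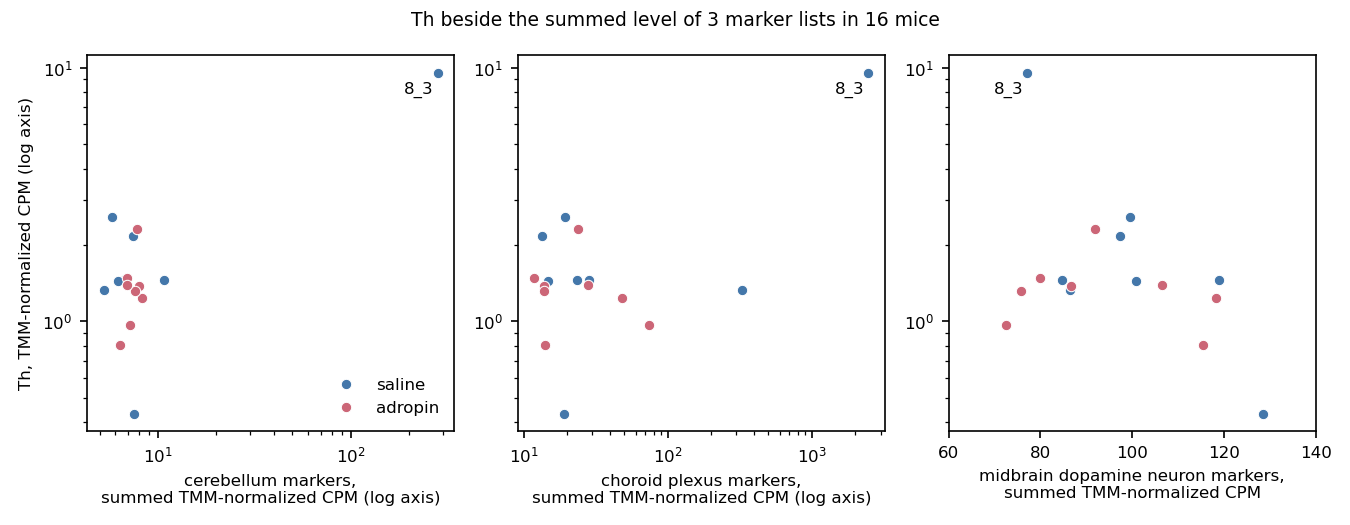
Th (TMM-normalized CPM, log axis) in each of 16 mice beside the summed TMM-normalized CPM of markers of the cerebellum and of the choroid plexus (log axes) and of midbrain dopamine neurons (linear axis), with saline mice in blue and adropin mice in red. Mouse 8_3 lies alone at the top right of the first and second plots, at 283 and 2470 CPM, and at the upper left of the third, at 77.1 CPM. Most of that 77.1 CPM is Aldh1a1 and Nr4a2, which other brain cells express too.

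The other enzymes of synthesis differed by less than the spread between mice. Ddc, on chromosome 11 from 11814101 to 11898144 (minus strand), ranged from 3.94 to 5.35 CPM (median 4.65) in adropin mice and from 3.24 to 7.13 (median 5.03) in saline mice. The saline mice enclosed the adropin mice, with mouse 2_3 the highest and mouse 6_1, also the lowest for Th, the lowest. The log2 fold change of Ddc was -0.11 with a standard error of 0.134 (interval -0.39 to 0.17, edgeR adjusted p = 0.883, exact permutation p = 0.595). Gch1, on chromosome 14 from 47153895 to 47189413 (minus strand), had from 20 to 68 counts in adropin mice (median 40.5) and from 22 to 78 in saline mice (median 37.5), at most 1.35 and 1.69 CPM. Mouse 8_3 was again the highest and the groups overlapped almost fully. Gch1 lay below the filter of the comparison, and on the log2 scale its difference was -0.10 (exact permutation p = 0.670). In edgeR with no filter its log2 fold change was -0.13 (unadjusted p = 0.599).

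Slc18a2, the vesicle loader, on chromosome 19 from 59260896 to 59296012 (plus strand), ranged from 3.41 to 4.95 CPM (median 3.92) in adropin mice and from 3.45 to 5.66 (median 4.60) in saline mice. Of the saline mice, 7_1 and 5_4 were the lowest, among the adropin values, and 8_3 was the highest. Its log2 fold change was -0.18 with a standard error of 0.111 (interval -0.41 to 0.06, edgeR adjusted p = 0.874, exact permutation p = 0.121), and -0.12 without mouse 8_3. A gene on the other strand, Gm29261, shares 111 bases of exon with Slc18a2 and had at most 2 counts in any mouse. Whether counting used strand is not given in the sources used here.

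The dopamine transporter Slc6a3, on chromosome 13 from 73536747 to 73578672 (plus strand), was found by few reads. It had from 2 to 12 counts in adropin mice (median 4.5), 43 in all, and from 0 to 24 in saline mice (median 7), 75 in all. Saline mouse 6_1, the lowest for Th, had the most counts of Slc6a3, and mouse 8_1 had 0, which allows a level of up to 0.0779 CPM. The rate over all adropin counts was 0.520 times that over saline counts (exact 95% interval 0.349 to 0.766, counting error only), but the difference between mice on the log2 scale, -0.43, was within their spread (exact permutation p = 0.350). Saline mice 6_1 and 5_3 held 24 and 17 of the saline counts.

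The noradrenaline transporter Slc6a2, on chromosome 8 from 92960079 to 93001667 (plus strand), was at the limit of detection. In adropin mice 1 count was found, in mouse 3_3, and 7 mice had 0. In saline mice 14 counts were spread over 6 of 8 mice, with at most 4 in 1 mouse, and mice 7_1 and 8_3 had 0. The groups overlapped at 0, and no adropin mouse had more than 1 count. The rate over all adropin counts was 0.0648 times that over all saline counts (exact 95% interval 0.00153 to 0.426, counting error only). On the log2 scale, where the size of the difference depends on the prior count at such levels, the exact permutation test gave an unadjusted p = 0.00699 and an adjusted p of 1 over the 30210 genes with at least 1 count, none of which had an adjusted p below 0.05. The unadjusted p ranged from 0.00264 to 0.0126 in the 16 exact permutation tests that each left out 1 mouse. When edgeR was run with no filter, Slc6a2 passed the cut-off (unadjusted p = 0.00343, adjusted p = 0.663), as did 4.48% of all genes in that fit, and so did Th. In that fit 6.3% of all genes, and 2 of the 8, had an unadjusted p below 0.05. Of the markers of noradrenaline neurons, Phox2a had 12 counts in each group, and Dbh had 80 counts in adropin mice and 102 in saline mice.

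The monoamine oxidase genes were the best measured. Maoa, on chromosome X from 16619698 to 16687818 (plus strand), ranged from 23.1 to 27.1 CPM (median 24.8) in adropin mice and from 21.1 to 29.9 (median 23.4) in saline mice, which extended past the adropin mice at both ends. Its log2 fold change was 0.04 with a standard error of 0.0692 (interval -0.11 to 0.18, edgeR adjusted p = 0.907, exact permutation p = 0.505). Maob, which faces Maoa tail to tail 21463 bases away (16709282 to 16817366, minus strand), ranged from 18.0 to 22.4 CPM (median 19.1) in adropin mice and from 18.2 to 24.2 (median 20.1) in saline mice. The highest were saline mouse 8_3 and adropin mouse 7_4, and the groups overlapped over most of their range. The log2 fold change of Maob was -0.08 with a standard error of 0.0670 (interval -0.22 to 0.06, edgeR adjusted p = 0.874, exact permutation p = 0.253). For both oxidases the interval lies inside the cut-off of a 1.5-fold change. Per kilobase, the ratio of Maoa to Maob ranged from 0.782 to 0.969 in adropin mice and from 0.669 to 0.963 in saline mice.

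**Figure D4:**
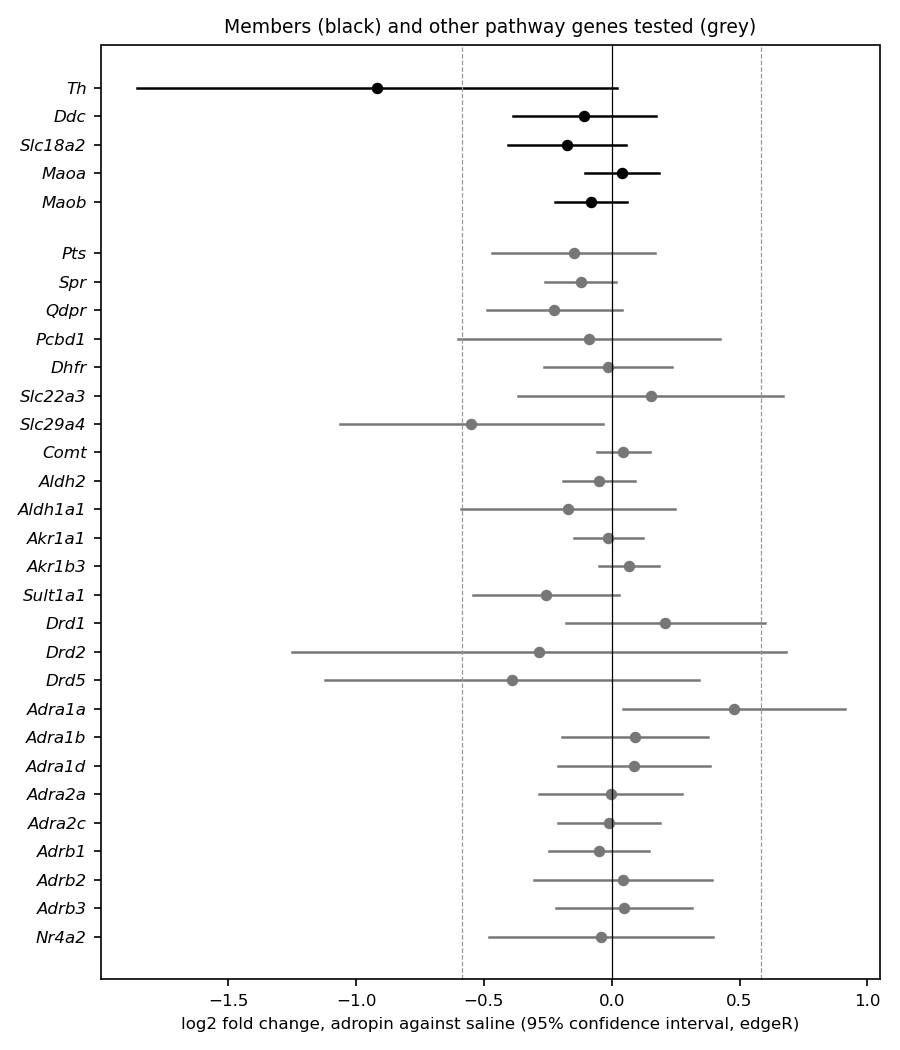
Log2 fold change, adropin against saline, with its 95% confidence interval from edgeR, for the 5 members tested (black) and the 25 other pathway genes tested (grey), with dashed lines at a 1.5-fold change. The interval of Th is the widest of the 5, from -1.86 to 0.02, and those of Slc29a4 and Adra1a alone do not cross 0.

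Whether the transcripts rose and fell together between mice was examined for the 6 genes with a median of at least 10 counts, in 15 pairs, with group means subtracted. The highest correlation was between Ddc and Maoa (Pearson r = 0.76, permutation p = 0.00365 and 0.0547 after adjustment). Its Spearman rho was 0.72 (permutation p = 0.00491 and 0.0368 after adjustment). With the mice at the extremes of Ddc, 2_3 and 6_1, left out, r was 0.61. Th and Maoa had r = 0.59 (permutation p = 0.0639, adjusted p = 0.240) and rho = 0.79 (permutation p = 0.00101, adjusted p = 0.0151), and r was 0.60 without mice 6_1 and 8_3. By Pearson's r 0 of 15 pairs had an adjusted p below 0.05 and by Spearman's rho 2 of 15. Th and Ddc, successive enzymes, had r = 0.49 (permutation p = 0.128, adjusted p = 0.323; rho = 0.51, permutation p = 0.0574, adjusted p = 0.196), and 0.37 without mice 6_1 and 8_3. The 2 mice moved it in opposite directions, since r was 0.18 without mouse 6_1 alone (permutation p = 0.605, adjusted p = 0.757) and 0.67 without mouse 8_3 alone (permutation p = 0.0233, adjusted p = 0.175). Maoa and Maob had r = 0.41 (permutation p = 0.172, adjusted p = 0.323; rho = 0.39, permutation p = 0.193, adjusted p = 0.482), and 0.42 without mice 2_3 and 6_2. Gch1 and Slc18a2 had r = 0.53 (permutation p = 0.0439, adjusted p = 0.240; rho = 0.53, permutation p = 0.0450, adjusted p = 0.196), which was 0.33 without mice 2_4 and 8_3. The remaining pairs had r between -0.04 and 0.51.

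**Figure D5:**
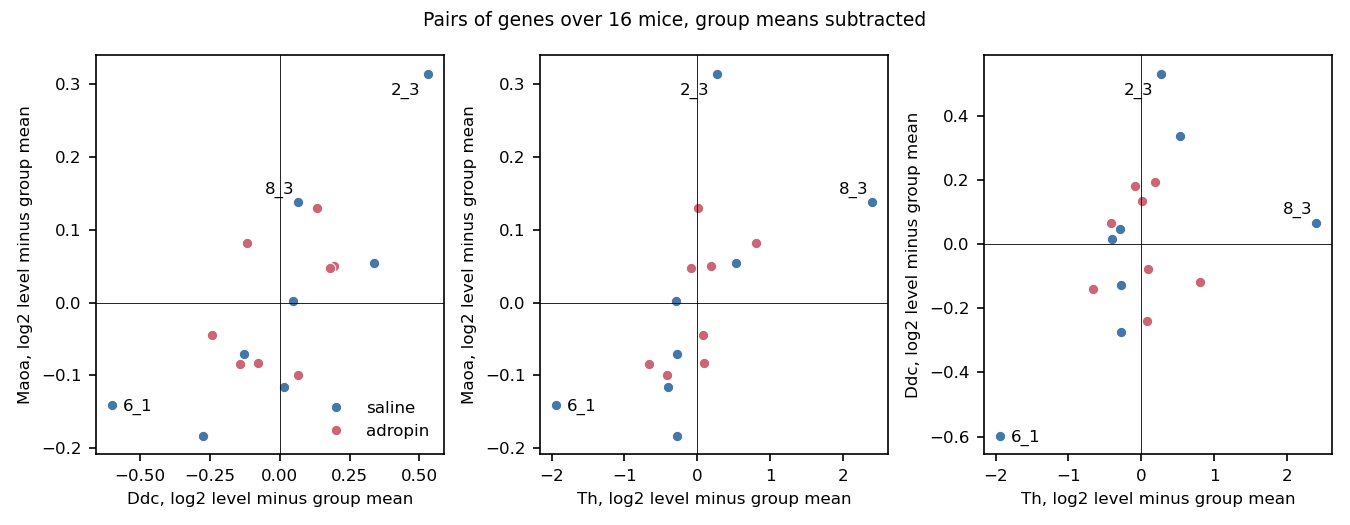
Log2 level minus the group mean in each of 16 mice for Ddc and Maoa, Th and Maoa, and Th and Ddc, with saline mice in blue and adropin mice in red. Mouse 6_1 is lowest for Th and Ddc, mouse 2_3 is highest for Ddc and Maoa, and mouse 8_3 is far to the right for Th alone.

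The genes most like each tested gene over the 16 mice, by Pearson's r of log2 levels with group means subtracted, were partly set by mouse 8_3. For Th they were Rps6ka1 (r = 0.95), Fndc10 (0.92) and Kcnk3 (0.91). Without mouse 8_3 these values were 0.90, 0.82 and 0.84, and among all genes tested Rps6ka1 was 4th, Fndc10 66th and Kcnk3 35th. For Ddc they were Klhdc9 (0.87), Ngfr (0.82) and Tekt5 (0.81), the first of which was again the closest without mouse 8_3 (0.87). For Slc18a2 they were Traf4, Gemin7 and Ccdc190, each at 0.79, and for Maoa they were Ppp2r3a, Asb16 and Nap1l5, each at 0.84. For Maob they were A2m (0.82), Tprkb (0.80) and Paqr6 (0.79), and A2m, at 9.13 CPM in mouse 8_3 against at most 3.26 in the others, had r = 0.70 without it. All these values come from the same libraries at the same depths.

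Of 35 other genes of the pathway, 25 were tested, 0 passed the cut-off with edgeR, limma-voom or DESeq2, and 2 had an unadjusted p below 0.05 in edgeR, 1 higher and 1 lower (1 gene with limma-voom and 2 with DESeq2), where 3.99% of all genes tested did in edgeR, 3.99% with limma-voom and 4.77% with DESeq2. Their median log2 fold change was -0.015, against -0.0019 over all genes. Slc29a4, which encodes a low-affinity transporter that takes up monoamines outside the synapse, ranged from 6.81 to 16.8 CPM (median 8.32) in adropin mice and from 5.95 to 24.4 (median 14.2) in saline mice, and its lowest and highest values were both in saline mice. Its log2 fold change was -0.55 with a standard error of 0.245 (edgeR unadjusted p = 0.0374, adjusted p = 0.874). Adra1a, the alpha-1A adrenergic receptor, ranged from 4.44 to 10.0 CPM (median 8.24) in adropin mice and from 3.30 to 8.75 (median 4.91) in saline mice. The groups overlapped, with saline mice 5_3 (8.50 CPM) and 7_1 (8.75 CPM) among the higher adropin mice. Its log2 fold change was 0.48 with a standard error of 0.207 (edgeR unadjusted p = 0.0327, adjusted p = 0.874). Without mouse 8_3 the unadjusted p was 0.0746 for Slc29a4 and 0.0605 for Adra1a in edgeR. With single mice left out, Slc29a4 passed the cut-off in 5 of 16 edgeR fits (without 2_3, 3_3, 4_3, 6_2 or 8_1), with log2 fold changes from -0.69 to -0.40 over the 16. Adra1a passed it in 2 of 16 (without 5_3 or 7_1), with values from 0.40 to 0.60. All 5 tested genes of synthesis and of the tetrahydrobiopterin cofactor had fitted values below 0, with a median of -0.12, and Dbh, Pnmt and Gchfr were not tested. Of the 6 genes of breakdown 4 were below 0 (median -0.03), and of the 11 receptors tested 5 were (median 0.05), with Drd3, Drd4 and Adra2b not tested.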

How the data were processed

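Brain RNA of 16 mice, 8 per group, was poly-A selected and sequenced in paired reads. Per the study's methods, alignment was done in STAR against the Ensembl GRCm38 primary assembly, and featureCounts gave the deposited counts, raw values per gene of reads with 1 unambiguous position. The deposited CPM values, scaled from the same counts, were not used here. Of 40757 entries, 276 repeats were dropped, and 355 ribosomal RNA genes were left out of the tests. TMM factors and the quasi-likelihood test came from edgeR 4.0.16 (R 4.3.3), with Benjamini-Hochberg adjustment over the 14949 genes tested. Alternatives were limma-voom (limma 3.58.1), DESeq2 1.42.0, other size factors and filters, label numbers as blocks, and each mouse left out. Exact permutation tests were two-sided, over 12870 divisions of the mice, on mean log2 TMM-normalized CPM (prior count 2). Correlations used 100000 permutations within groups. The adjustment of exact tests over all genes was added after the data were seen. Each mouse was 1 replicate. The 8 genes, the pathway list, the markers and the tests were chosen with earlier results of these data known. Named besides them are pathway genes with an unadjusted p below 0.05, the 3 genes most like each tested gene, and markers where a mouse stands apart. Exon lengths and coordinates came from GENCODE M21 (GRCm38), and promoters from RefSeq. The fits were tested on simulated data with the same dispersion in all genes and no outlying mouse. Those runs do not bear on a gene as uneven as Th. Library totals limit precision mainly below 1 CPM. Some of the listed cell type markers are not reported here.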

Additional observations from a re-analysis of the deposited data

Results flagged for a closer look

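Within each group of 8 mice, the highest and lowest mouse of each gene was compared with the nearest other mouse, and a gap above Dixon's 95% critical share of the group's range marked a mouse as apart. Of 16 groups examined 4 had such a mouse, 1 of them (Slc6a2 in adropin mice) by construction, and chance marks about 1 in 20 groups. Th was 9.58 TMM-normalized CPM in saline mouse 8_3 (nearest 2.58) and 2.32 in adropin mouse 7_4 (nearest 1.48). Maob was 22.4 in the same adropin mouse 7_4 (nearest 19.9). Slc6a2 was 0.0236, a single count, in adropin mouse 3_3, where the other adropin mice had 0, and with 7 of 8 mice at 0 any single count would have been marked. No explanation was tested for these mice.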

How the results depend on the processing

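Th was the least stable of the genes tested. It passed the cut-off with DESeq2 (log2 fold change -0.917, unadjusted p = 0.0316), with library size only (-0.937, edgeR unadjusted p = 0.0468) and with no filter (-0.918, edgeR unadjusted p = 0.0395), so that the number that passed, and with an unadjusted p below 0.05, was 1 of 5 tested with DESeq2, 1 of 5 with library size only and 2 of 8 with no filter, where Slc6a2 was the other. Of all 14949 genes 63 passed and 713 had an unadjusted p below 0.05 with DESeq2, and 68 and 599 with library size only. Leaving out single mice, the log2 fold change of Th ranged from -1.08 to -0.20 and 0 to 1 genes passed, by either count. Th passed in 6 of these 16 fits, without mouse 5_4, 6_1, 6_2, 7_1, 7_4 or 8_1, and was nearest 0 without 8_3. In edgeR the ranges were -0.18 to -0.021 for Ddc, -0.22 to -0.12 for Slc18a2, 0.011 to 0.086 for Maoa and -0.11 to -0.040 for Maob. In the exact permutation tests they were -0.71 to -0.093 for Th, -0.22 to -0.12 for Slc18a2, -0.74 to -0.23 for Slc6a3 and -0.88 to -0.66 for Slc6a2, -0.16 to 0.00036 for Ddc (above 0 without 2_3), -0.18 to 0.021 for Gch1 (above 0 without 2_4 or 8_3), 0.020 to 0.091 for Maoa and -0.11 to -0.038 for Maob. An exact permutation p below 0.05 was reached by Th without mouse 6_1 (p = 0.0490), Slc18a2 without 7_1 (p = 0.0401) and Slc6a3 without 8_1 (p = 0.0395). Pairs with an adjusted Pearson p below 0.05 numbered 1 without subtracting group means, 1 with library size only, in both cases Ddc and Maoa, and from 0 to 2 leaving out single mice (above 0 without 2_3, 4_3, 6_1, 7_4 or 8_3). Over all genes, 1353 of 30210 passed with no filter, and from 49 to 107 leaving out single mice, the most without 4_3. The cause was not tested.

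The label numbers were not used as pairs, since nothing says what they stand for and mice sharing a number did not vary together (mean r -0.11 for the first number and -0.060 for the second). With the first number as a replicate block the log2 fold change of Th was -0.26 and with the second -0.81, Maoa turned from 0.04 to -0.032 with the first, Ddc went from -0.11 to -0.30 (edgeR unadjusted p = 0.0528) and Slc18a2 from -0.18 to -0.0061 with the first, and 0 of the 5 genes passed the cut-off with either block. Of the other pathway genes Slc29a4 passed with the second (-0.59, edgeR unadjusted p = 0.0395). Depth limits statements on Slc6a3 and Slc6a2, whose counts were at most 24 and 4 per mouse.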
